A study of Mus musculus with 56 samples.

Results

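The vesicular glutamate transporters are 3 genes: Slc17a6, which encodes VGLUT2, Slc17a7, which encodes VGLUT1, and Slc17a8, which encodes VGLUT3. They were followed across 56 Affymetrix arrays of total RNA from cortical neurons of C57BL6 mouse embryos (embryonic day 13 to 15, 7 days in vitro, drug for 24 or 72 h). All probe sets that carry 1 of the 3 symbols alone were taken, and the 3 genes stand among 23600 genes with such a probe set on any array type. The members were chosen from their levels across these same treatments, so their differences are a description and carry no test. Each level below is the log2 of the deposited intensity, and each difference is treated minus control on that scale, with the SE of the limma fit.

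Topotecan and irinotecan, both derivatives of camptothecin, inhibit topoisomerase I, an enzyme that relieves the twist transcription puts into DNA. On the 3' arrays (12 arrays), topotecan at 300 nM was set against its vehicle and ICRF-193 at 3 µM, a catalytic inhibitor of topoisomerase II, against a vehicle of its own (n = 3 in each of these groups). The earlier gene-level arrays (10 arrays) held a topotecan dose series: 3 vehicle arrays, 2 arrays at 300 nM, and a lone array for each of 3, 30, 150, 500 and 1000 nM. On the later gene-level arrays (34 arrays) 6 arrays had topotecan at 1 µM and 6 its vehicle. Irinotecan at 10 µM (n = 3) had 2 vehicle arrays in common with a lone array of 24 h in topotecan and another in which 24 h of topotecan was followed by washout. Further arrays came from neurons that received a lentivirus with a short hairpin RNA (shRNA) against Top1, one against Top2b or a scrambled control shRNA (n = 3 each). DRB at 100 µM, which blocks elongation by RNA polymerase II, and its vehicle had 1 array each. The oxidants had 1 array each, paraquat at 10 µM and hydrogen peroxide at 100 µM, with 2 vehicle arrays in common.

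All 3 transporters load glutamate into synaptic vesicles, driven by the proton gradient that the vesicular ATPase builds up, and a neuron that expresses one of them can release glutamate. In the mature brain VGLUT1 predominates in the cortex and VGLUT2 in the thalamus and other subcortical regions, while young cortical neurons also make VGLUT2. VGLUT3 is found in scattered neurons, among them neurons that release another transmitter.

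The bases just upstream of an annotated start of each gene are shown because the members did not move together. They come from RefSeq on the build GRCm38.p6, where all 3 members were matched. Slc17a6 and Slc17a8 each have 2 starts in that table, and the most upstream one was taken. Capitals mark GC boxes, the letters GGGCGG or CCGCCC on the strand shown. The window lies at chr7:51621580-51621829 on the plus strand for Slc17a6, at chr7:45163671-45163920 on the plus strand for Slc17a7 and at chr10:89621250-89621499 on the minus strand for Slc17a8.
Slc17a6: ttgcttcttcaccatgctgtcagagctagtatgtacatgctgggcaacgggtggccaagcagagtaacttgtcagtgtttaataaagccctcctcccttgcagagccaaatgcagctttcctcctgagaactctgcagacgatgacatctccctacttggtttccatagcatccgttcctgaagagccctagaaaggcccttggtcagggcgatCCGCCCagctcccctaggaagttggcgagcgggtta
Slc17a7: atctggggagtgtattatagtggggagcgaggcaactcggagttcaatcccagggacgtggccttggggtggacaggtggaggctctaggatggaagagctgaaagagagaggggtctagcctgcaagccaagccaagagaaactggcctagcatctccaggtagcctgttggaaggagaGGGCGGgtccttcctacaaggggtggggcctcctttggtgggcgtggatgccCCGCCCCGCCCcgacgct
Slc17a8: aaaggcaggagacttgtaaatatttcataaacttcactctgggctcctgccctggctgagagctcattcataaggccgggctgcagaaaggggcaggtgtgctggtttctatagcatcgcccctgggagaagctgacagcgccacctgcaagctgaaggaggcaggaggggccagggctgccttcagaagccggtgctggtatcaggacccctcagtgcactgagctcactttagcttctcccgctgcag
The windows of 250 bases held 3 GC boxes for Slc17a7, the last of them overlapping by 1 base, 1 for Slc17a6 and 0 for Slc17a8. Of 32851 RefSeq windows of this length, 32.7% held at least 1 GC box and 8.47% held 3 or more. CG dinucleotides numbered 9 for Slc17a7, 7 for Slc17a6 and 5 for Slc17a8, against a median of 6 over all windows. G and C made up 61.2% of the Slc17a7 window, 53.2% of that of Slc17a6 and 57.2% of that of Slc17a8, against a median of 52.4%. None of the 3 windows held TATAAA (12.4% of all windows), CACGTG (6.02%) or TGACG (17.8%) on either strand. Such matches are a description of letters and not of sites in use. The annotated genes differ in length, with 49.3 kb for Slc17a6, 12.2 kb for Slc17a7 and 47.2 kb for Slc17a8.

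Before the treatments are compared, the arrays themselves need a word. The mean intensity differed between sets of arrays (571 to 577.3 for ICRF-193 and 682.3 to 698.3 for topotecan on the 3' arrays; 137.8 to 211 over the later arrays), so levels are set side by side only within an experiment. shRNA number 1 of each group lay in another such set than numbers 2 and 3. Some arrays stood apart: the DRB array and control shRNA number 1 correlated with their nearest array at 0.883 and 0.916 at most, and among the dose arrays 1000 nM and vehicle 1 and 2 lay apart from the other 7 in expression. Vehicle 4 of topotecan at 1 µM and vehicle 1 of the oxidants differed from the other vehicles in the genes described here. Genes over the 40th percentile of mean level were kept for ranking and testing. Slc17a6 and Slc17a7 were kept on every array type, and Slc17a8 on the later arrays only, since it lies under the limit on the earlier gene-level arrays and the 3' arrays carry no probe set of that symbol alone. On the later arrays 14 of 16 listed markers of cortical excitatory neurons were kept, as were 14 of 18 of inhibitory interneurons and 10 of 12 of astrocytes. Thalamic and Cajal-Retzius markers were kept in 6 of 8 each. The limit kept 13308 of 22180 genes there, so these counts do not show which cell types were present. In such bulk RNA, fewer cells of a type and less RNA per cell cannot be told apart.

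Slc17a6 was higher than in vehicle with every topoisomerase inhibitor tested over replicates and, in the dose series, from 30 nM on. With topotecan at 300 nM, the brighter of its probe sets on the 3' arrays read 10.70, 11.27 and 11.12, against 9.99, 10.11 and 10.06 in vehicle. All 3 treated arrays lay above all 3 vehicle arrays. The means were 11.03 ± 0.29 with topotecan and 10.05 ± 0.06 in vehicle (SD, n = 3 each), a difference of 0.98 ± 0.16 (SE), or 1.97-fold, which ranked 56 from the highest among 10916 kept genes. The groups did not overlap in 29.5% of all kept genes here. The second probe set of Slc17a6 read 8.94, 9.52 and 10.25, against 8.94, 8.64 and 9.24 in vehicle. Its groups overlapped, and its mean difference of 0.63 had the same direction.

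**Figure D1:**
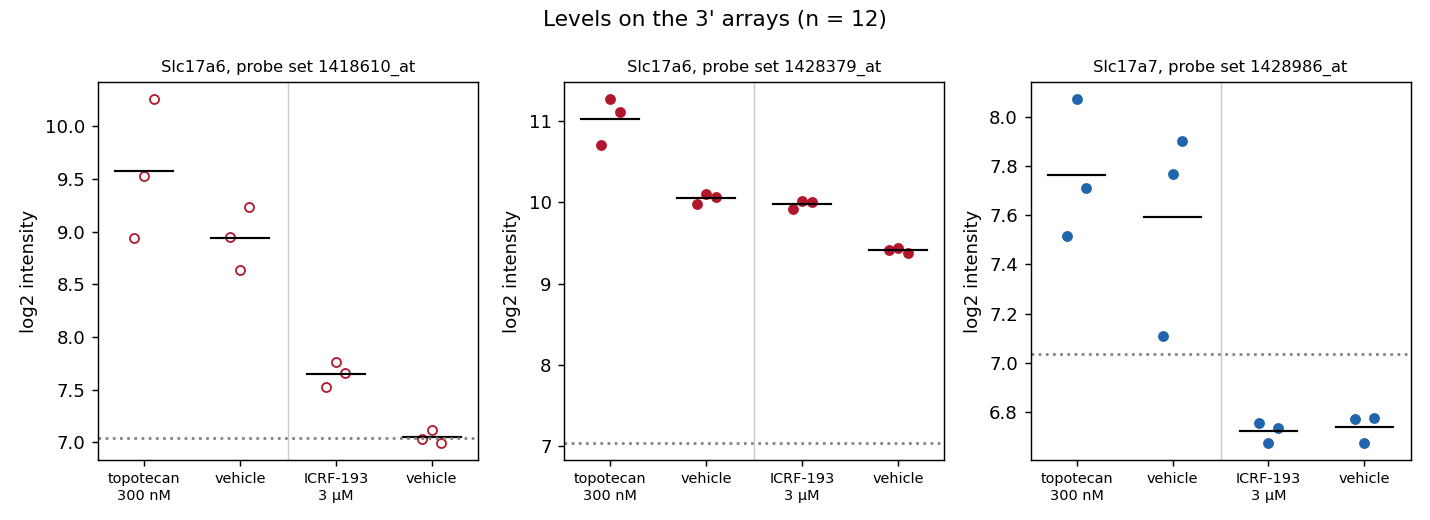
Log2 intensity on the 12 3' arrays (vertical axis) for the Slc17a6 probe sets and the Slc17a7 probe set; each point is 1 array, the black line is the group mean, and the dotted line is the limit under which genes were left out. In the brighter Slc17a6 probe set each drug stands clear of its own vehicle, while the Slc17a7 arrays of drug and vehicle lie at the same heights.

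In the dose series Slc17a6 was higher from 30 nM on. It read 8.33, 8.44 and 8.79 in vehicle, 8.77 at 3 nM, 8.92 at 30 nM, 9.31 at 150 nM, 9.48 and 9.60 at 300 nM, 9.64 at 500 nM and 9.62 at 1000 nM. From 30 nM on every array lay above every vehicle array, though the share of all genes with such a separation was not counted. At 30 nM the gap to the nearest vehicle was 0.13, less than the range of 0.46 among the vehicles. The 1000 nM array and the vehicles at 8.33 and 8.44 are those that lay apart, and the vehicle at 8.79 stands with the other doses. Against the vehicle of its own set, Slc17a6 was at -0.02 at 3 nM, 0.13 at 30 nM, 0.52 at 150 nM, 0.69 and 0.81 at 300 nM, 0.84 at 500 nM and 1.24 at 1000 nM. The 3 nM array thus did not lie above its vehicle, and each of these differences has 1 or 2 vehicle arrays behind it. The slope was 0.21 ± 0.024 log2 units per dose step (SE, 10 arrays), the rank 6 from the highest of 11292 genes. Within the 7 arrays that stood together it was 0.20 ± 0.023, and with the set of arrays as a term 0.21 ± 0.015. Slc17a7 showed no such order of levels. It read 9.97, 10.01 and 9.89 in vehicle, 9.94 at 3 nM, 9.99 at 30 nM, 10.20 at 150 nM, 10.18 and 10.10 at 300 nM, 10.01 at 500 nM and 9.70 at 1000 nM. The highest arrays were those at 150 and 300 nM and the lowest was that at 1000 nM, and the slope was -0.001 ± 0.022. Without the 1000 nM array that slope was 0.035, and within the 7 arrays that stood together 0.044 ± 0.020. Against the vehicle of its own set, Slc17a7 was at 0.05 at 3 nM, 0.10 at 30 nM and 0.31 at 150 nM. It was at 0.29 and 0.21 at 300 nM, 0.13 at 500 nM and -0.29 at 1000 nM, again with 1 or 2 vehicle arrays behind each.

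**Figure D2:**
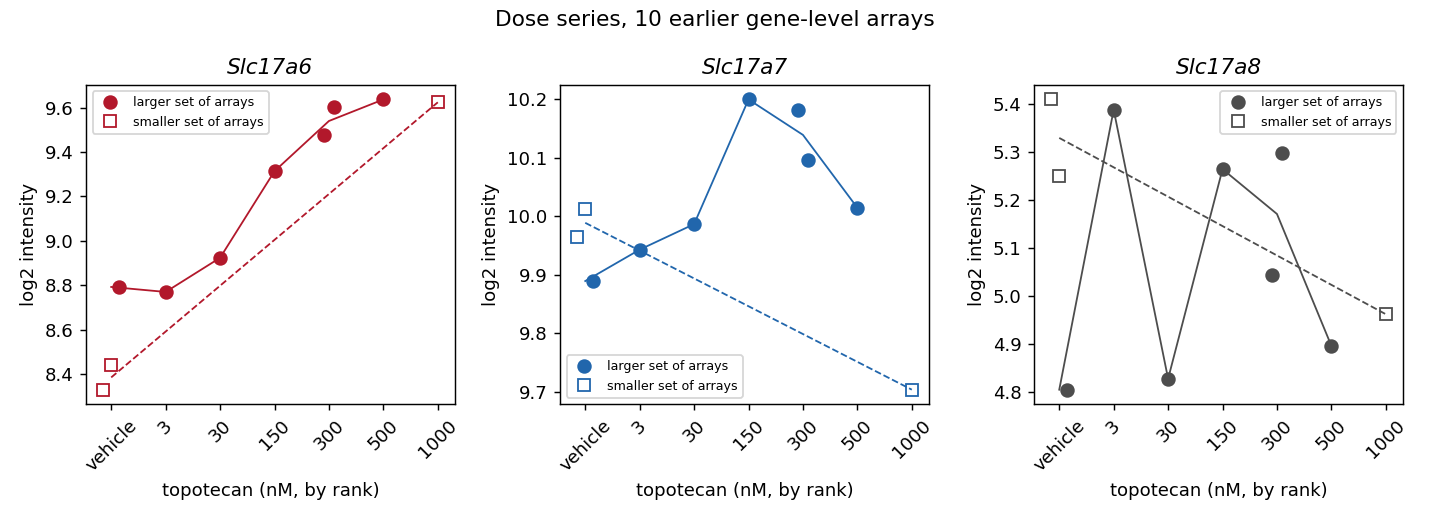
Log2 intensity (vertical axis) of the 3 transporters over the topotecan doses, spaced by rank with vehicle at the left; filled circles are the 7 arrays that stood together, open squares the arrays that lay apart, and lines join the means of each. Slc17a6 lies above every vehicle array from 30 nM on, at 30 nM by less than the range of the vehicles, and Slc17a7 stays between 9.70 and 10.20.

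At 1 µM topotecan, with 6 arrays a group, Slc17a6 read 7.79, 8.07, 7.97, 8.24, 8.43 and 7.78. The 6 vehicle arrays read 7.72, 7.60, 7.37, 7.01, 8.04 and 7.49. The lowest, median and highest values were 7.78, 8.02 and 8.43 with topotecan and 7.01, 7.55 and 8.04 in vehicle, so only vehicle 5 reached into the range of the treated arrays. The difference was 0.51 ± 0.15, or 1.42-fold, and ranked 598 of 13308 genes, in a comparison where 19.1% of genes had groups without overlap. The doses, the array types and possibly the hours of drug differ between these experiments, so the sizes at 300 nM and 1 µM cannot be ordered.

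Slc17a6 was also higher with irinotecan at 10 µM. Its arrays read 9.25, 9.08 and 9.17, against 7.87 and 7.64 in the 2 shared vehicle arrays. The groups were far apart relative to their spread, with means of 9.17 ± 0.09 (SD, n = 3) with irinotecan and 7.75 ± 0.16 (SD, n = 2) in vehicle. The difference was 1.41 ± 0.10, or 2.67-fold, and ranked 5 from the highest of 13308 genes, in a comparison where 57.1% of genes had groups without overlap. The topotecan array at 24 h read 8.73 for Slc17a6, 0.98 above the mean of the same vehicles. After washout the array read 7.93, which is 0.18 above that mean and 0.06 above the higher vehicle array. In this experiment the order of Slc17a6 was thus irinotecan, topotecan for 24 h, washout, vehicle, with washout and vehicle closer than the 2 vehicle arrays were to each other. With 1 array each, the 24 h and washout values have no replicate check. A difference of at least 1 in either direction was seen in 2.73% of genes at 24 h and in 0.0451% after washout.

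ICRF-193 also came with more Slc17a6 RNA. The brighter probe set read 9.92, 10.01 and 10.00, against 9.42, 9.44 and 9.38 in its vehicle. Both groups were tight, at 9.98 ± 0.05 with ICRF-193 and 9.41 ± 0.03 in vehicle (SD, n = 3 each). The difference was 0.56 ± 0.04, or 1.48-fold, rank 68 of 10916, where 39.2% of genes had groups without overlap. The second probe set read 7.53, 7.76 and 7.66, against 7.04, 7.11 and 7.00 in vehicle, a difference of 0.60 without overlap.

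Slc17a7 did not follow Slc17a6 under the inhibitors. With topotecan at 300 nM it read 7.52, 8.07 and 7.71, against 7.11, 7.77 and 7.90 in vehicle. The groups overlapped and the difference was 0.17 ± 0.24, which turned to -0.07 without vehicle 1. With ICRF-193 it read 6.76, 6.68 and 6.74, against 6.77, 6.68 and 6.78 in vehicle (-0.02 ± 0.04), all under the limit of 7.04 for dim genes on these arrays. With irinotecan it read 9.09, 9.23 and 9.20, against 9.35 and 9.33 in vehicle. The irinotecan arrays were all slightly lower, by 0.17 ± 0.08 on the log2 scale. The topotecan array at 24 h read 9.23 and that after washout 9.11, against the same 2 vehicles.

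At 1 µM topotecan the Slc17a7 comparison rested on 1 vehicle array. Slc17a7 read 7.08, 7.83, 7.87, 8.23, 8.07 and 7.13 with topotecan. Its vehicle arrays read 8.79, 8.40, 8.44, 6.73, 8.51 and 8.38. Vehicle 4 was the lowest of all 12 arrays, and the other 5 vehicles lay above every treated array. With all arrays the difference was -0.51 ± 0.31 and the groups overlapped. Without vehicle 4 it was -0.80 ± 0.19, with the highest treated array at 8.23 and the lowest remaining vehicle at 8.38. Vehicle 4 was singled out by its Slc17a7 level, so the separation without it is a description only. With all arrays 19.1% of genes had groups without overlap, a share that was not counted without vehicle 4. Among the treated arrays numbers 1 and 6 were low as well.

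**Figure D3:**
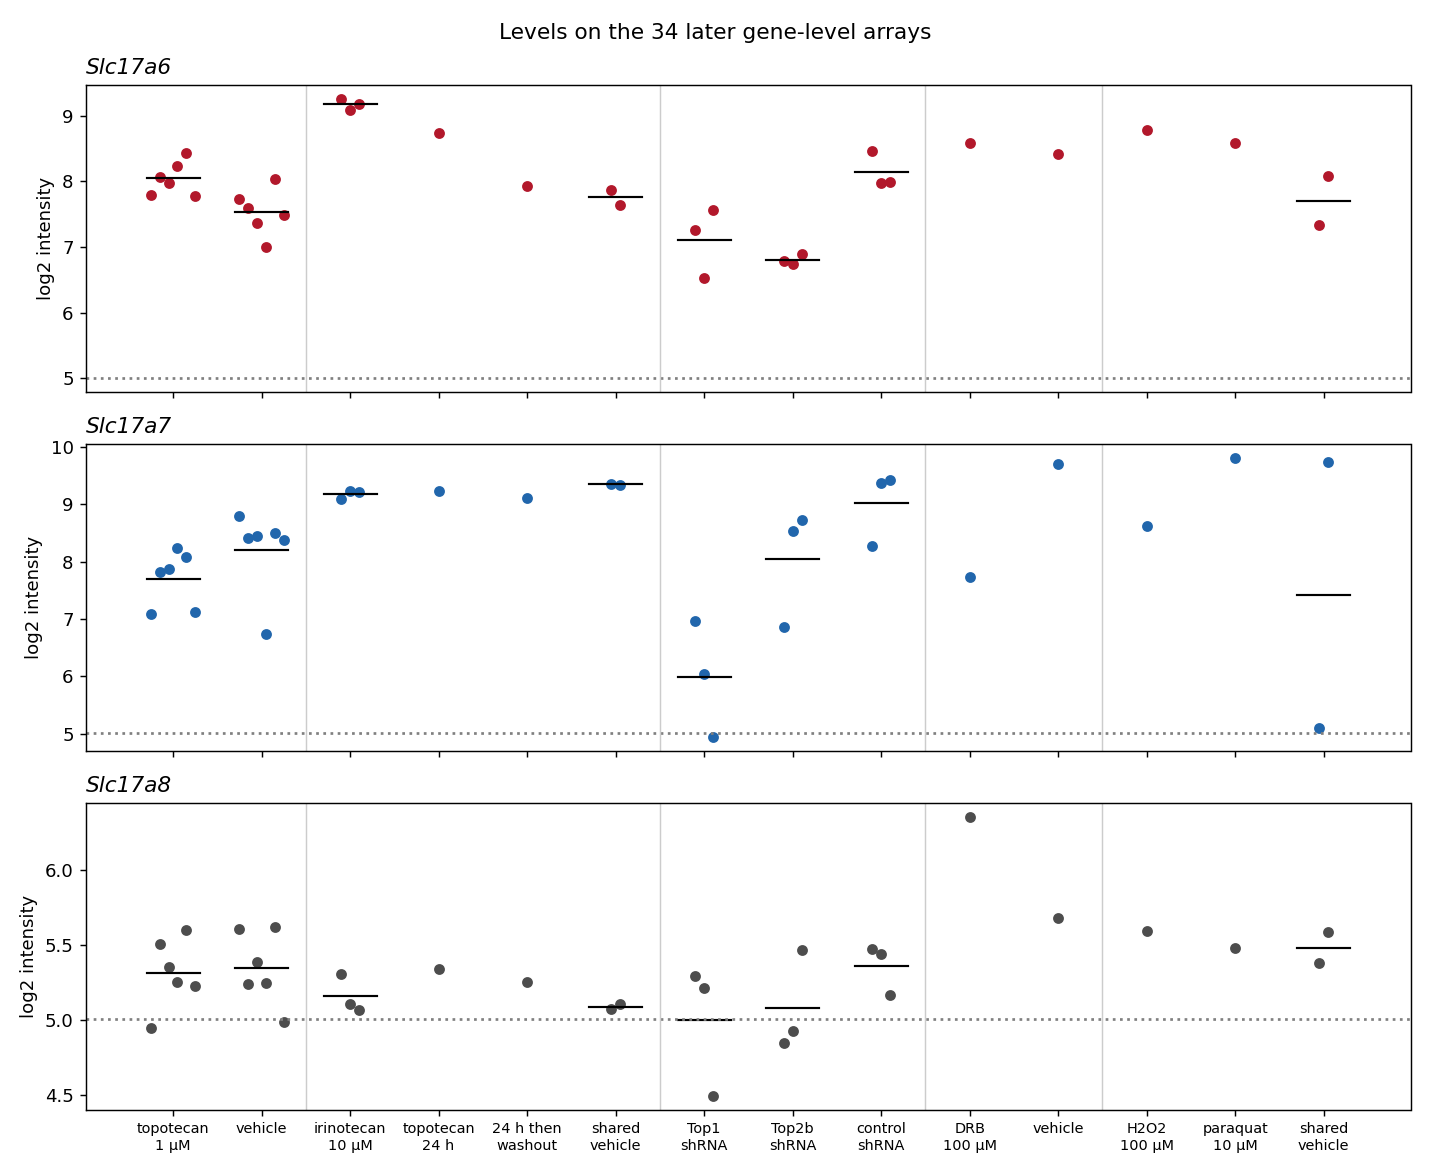
Log2 intensity (vertical axis) of Slc17a6, Slc17a7 and Slc17a8 on the 34 later gene-level arrays; each point is 1 array, black lines are group means, grey vertical lines part the experiments and the dotted line is the limit of 5.01 for dim genes. Slc17a6 stands above vehicle with irinotecan and below control with both shRNAs, and Slc17a7 is low in the Top1 shRNA arrays and in 1 vehicle array of the oxidants and of topotecan at 1 µM.

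In the knockdown experiment Slc17a6 was lower than in control shRNA with both hairpins, the opposite direction to that with the inhibitors, and Slc17a7 was lower with Top1 shRNA. The targeted genes come first. Top1 read 7.62, 8.39 and 8.29 with Top1 shRNA, against 8.98, 8.46 and 8.55 with control shRNA. The difference was -0.57 ± 0.26 and did not pass the test (limma, adjusted p = 0.193), though all 3 arrays lay under the controls, for arrays 2 and 3 by little. Top2b read 8.62, 6.87 and 6.80 with Top2b shRNA, against 9.30, 8.39 and 8.17 with control shRNA. The groups overlapped and the difference of -1.19 ± 0.47 did not pass either (limma, adjusted p = 0.22).

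Slc17a7 had the largest negative difference of all 13308 kept genes with Top1 shRNA. It read 6.97, 6.05 and 4.95, against 8.26, 9.37 and 9.41 with control shRNA. No array reached the controls, the treated arrays were themselves far apart, and array 3 lay under the limit for dim genes. The means were 5.99 ± 1.01 with Top1 shRNA and 9.02 ± 0.65 with control shRNA (SD, n = 3 each). The difference was -3.03 ± 0.60, or 8.15-fold lower with Top1 shRNA, in a comparison where 30.0% of genes had groups without overlap. Number 1, whose arrays lay in another set, gave -1.30 on its own, and numbers 2 and 3 gave -3.89 ± 0.33. With Top2b shRNA, which shares the control arrays, Slc17a7 read 6.87, 8.53 and 8.73. This difference of -0.97 ± 0.60 came with overlapping groups, and it was -0.39 without Top2b shRNA 1 and -1.35 without control shRNA 1. Within numbers 2 and 3 it was -0.76 and within number 1 -1.39, so that each number on its own gave a lower level with Top2b shRNA.

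Slc17a6 was lower with either hairpin. It read 7.25, 6.52 and 7.56 with Top1 shRNA and 6.79, 6.74 and 6.89 with Top2b shRNA, against 8.47, 7.98 and 7.99 with control shRNA. Every knockdown array lay under every control array. The differences were -1.03 ± 0.28 (2.05-fold lower) with Top1 shRNA and -1.34 ± 0.28 (2.53-fold lower) with Top2b shRNA, where 28.1% of genes had groups without overlap. By number, the Top1 differences were -1.22, -1.45 and -0.43 and the Top2b differences -1.68, -1.23 and -1.10. The levels of Slc17a6 with the 2 hairpins overlapped, as did those of Slc17a7, for which Top1 shRNA number 1 at 6.97 lay above Top2b shRNA number 1 at 6.87.

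General neuronal markers moved in the same arrays. The mean log2 level of Tubb3, Map2, Rbfox3, Snap25 and Stmn2, chosen after their values were seen, was 10.63, 9.59 and 10.38 with Top1 shRNA and 10.44, 10.79 and 10.84 with Top2b shRNA, against 11.19, 11.13 and 11.12 with control shRNA. All knockdown arrays were lower on this measure. Gene by gene, only Rbfox3 with Top1 shRNA passed (limma, adjusted p = 0.0251), and none passed with Top2b shRNA. Each of these genes was also lower with topotecan at 1 µM, from -0.24 (Stmn2) to -1.63 (Rbfox3), where Slc17a6 was higher. All of them passed there (limma, adjusted p under 0.05), where 20.8% of all genes passed as lower. With irinotecan they lay between -0.01 (Stmn2) and -1.20 (Rbfox3). Rbfox3 alone passed there (limma, adjusted p = 0.000108), where 11.7% of all genes passed as lower. With topotecan at 300 nM and with ICRF-193 they went both ways. The mean of the excitatory marker list was 7.13, 6.46 and 6.67 with Top1 shRNA and 7.24, 6.98 and 7.10 with Top2b shRNA, against 7.95, 7.53 and 7.63 with control shRNA. The astrocyte list averaged 8.14, 7.42 and 7.66 with Top1 shRNA and 9.01, 7.51 and 7.38 with Top2b shRNA, against 7.48, 7.34 and 7.20 with control shRNA. Of 10 astrocyte markers 1 passed as higher and 1 as lower with Top1 shRNA, where 6.08% and 5.79% of all genes did. None passed with Top2b shRNA in limma, against 4 higher and 0 lower at an unadjusted p under 0.05. The part of cell composition in the transporter differences was not tested.

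**Figure D4:**
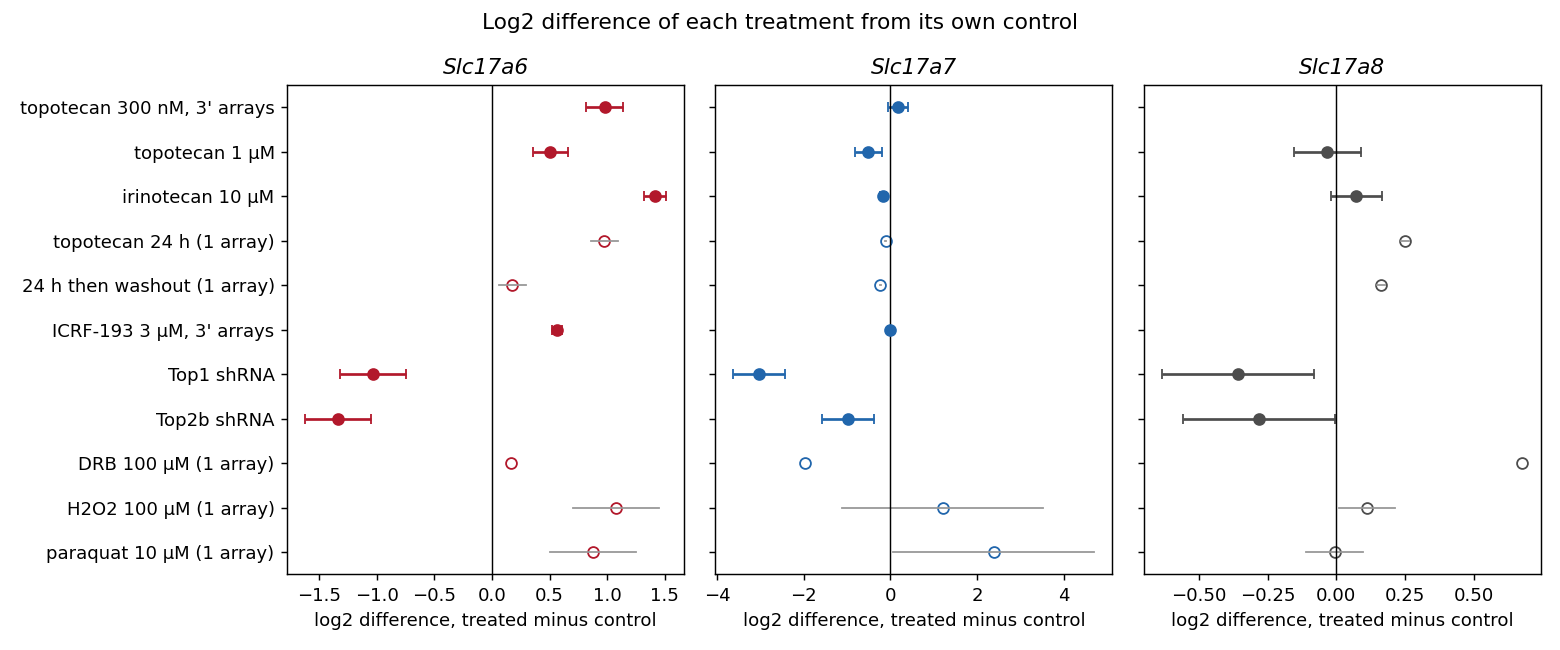
Log2 difference of each treatment from its own control (horizontal axis) for the 3 transporters; filled points carry the SE of the limma fit, open points are lone arrays and their grey lines run between the differences from each of 2 vehicle arrays. Slc17a6 lies right of 0 with every inhibitor and left of 0 with both shRNAs, while the scale of the Slc17a7 panel is set by Top1 shRNA and by the spread of the oxidant vehicles.

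In 2 of the 7 vehicle or control groups Slc17a7 had the widest range of all kept genes. In the other groups its range ranked 1258 (topotecan at 300 nM) and 6318 (ICRF-193) of 10916 genes, 9147 of 11292 (dose series), and 1771 (control shRNA) and 11874 (irinotecan) of 13308. Among the 6 vehicles of topotecan at 1 µM its range of 2.06 was the widest of all 13308 kept genes, whose median range was 0.36. Vehicle 4 set that range: it lay 1.77 under the mean of the other 5, the lowest such value of all genes. Slc17a6 had a range of 1.03, the rank 262, and Slc17a8 one of 0.63. In vehicle 4, 12 of 14 excitatory markers were lower than in the other vehicles (median -0.53), as were 13 of 14 inhibitory markers (-0.40), 17 of 18 vesicle membrane and synapsin genes (-0.40) and 14 of 14 proton pump genes (-0.22). Of 10 astrocyte markers 8 were higher (median 0.19), and the median of all genes was -0.04.

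The 2 oxidant vehicles differed even more. Slc17a7 read 5.10 in vehicle 1 and 9.74 in vehicle 2, again the widest range of all kept genes (4.64, against a median of 0.41). Slc17a6 read 7.33 and 8.08 and Slc17a8 5.38 and 5.59. In vehicle 1, the vesicular GABA transporter Slc32a1 was lower by 2.23 on the log2 scale than in vehicle 2, the neuronal splicing factor Rbfox3 by 1.70, and the proliferation marker Mki67 was higher by 1.69. Rbfox3 differed most of the general neuronal markers, with Snap25 at -1.35, Stmn2 at -0.65, Tubb3 at -0.51 and Map2 at -0.42. Of 14 excitatory markers 13 were lower and 1 higher, and of 14 inhibitory markers 12 were lower and 2 higher. Of 10 astrocyte markers 4 were lower and 6 higher, and the median of all genes was -0.11. The 2 vehicles of irinotecan, by contrast, differed by 0.0186 for Slc17a7 and by 0.23 for Slc17a6.

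**Figure D5:**
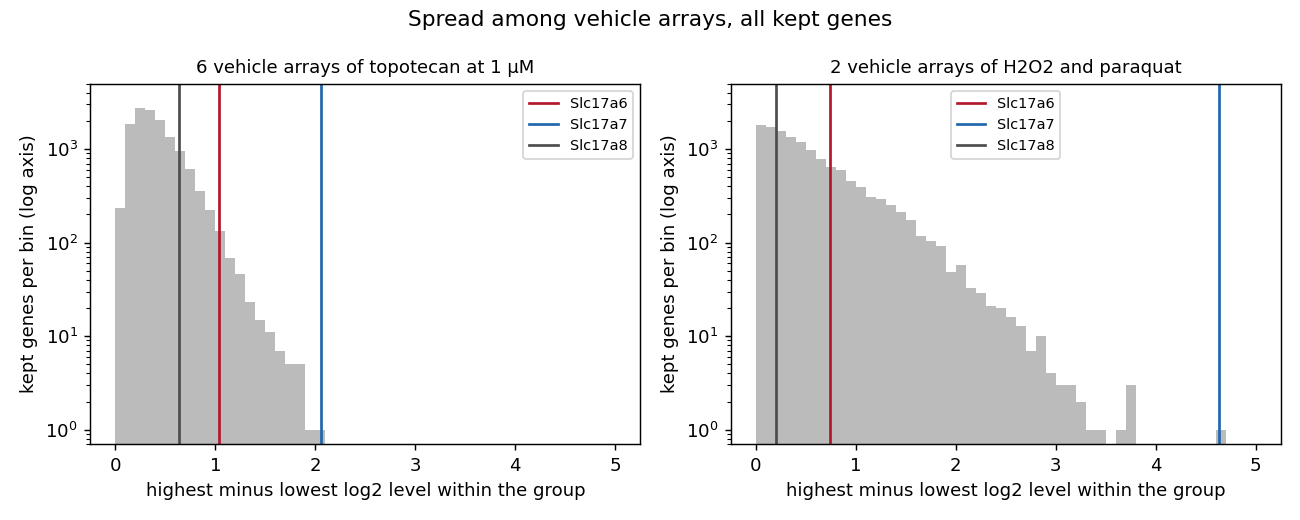
Number of kept genes (vertical log axis) by the difference between the highest and lowest log2 level within a vehicle group (horizontal axis, bins of 0.1), with the 3 transporters as vertical lines, for the 6 vehicles of topotecan at 1 µM and the 2 vehicles of the oxidants. The Slc17a7 line stands at the far end in both groups, at 2.06 and 4.64.

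The oxidant results for Slc17a7 depend on which vehicle array is taken. With hydrogen peroxide it read 8.62, which is 3.53 above vehicle 1 and 1.11 under vehicle 2. With paraquat it read 9.80, which is 4.71 above vehicle 1 and 0.07 above vehicle 2. Slc17a6 was above both vehicles with either oxidant, at 8.78 with hydrogen peroxide (by 1.45 and 0.71) and at 8.58 with paraquat (by 1.25 and 0.51). A difference of at least 1 from the mean of the vehicles was found in 2.67% of genes with hydrogen peroxide and 5.14% with paraquat. With DRB, Slc17a7 read 7.74, against 9.70 in its vehicle, while Slc17a6 read 8.58 with DRB and 8.41 in vehicle. The DRB array was far from all others, with 24.8% of genes differing by at least 1, and Slc17a7 ranked 299 from the lowest. None of these lone arrays allows a test.

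Slc17a8 was dim: it lay near the limit of 5.01 in most groups of the later arrays and under the limit on the earlier gene-level arrays. At 1 µM topotecan the lowest, median and highest values were 4.95, 5.31 and 5.60 with topotecan and 4.99, 5.32 and 5.62 in vehicle. It read 5.31, 5.11 and 5.07 with irinotecan, against 5.08 and 5.11 in vehicle. With Top1 shRNA it read 5.30, 5.21 and 4.49 and with Top2b shRNA 4.85, 4.92 and 5.47, against 5.47, 5.44 and 5.16 with control shRNA. All of these groups overlapped, and the differences lay between -0.36 ± 0.28 with Top1 shRNA and 0.07 ± 0.09 with irinotecan. The highest value was that of the DRB array at 6.36, against 5.68 in its vehicle. In the dose series all 10 arrays read 4.80 to 5.41, under the limit of 6.02.

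The rest of the vesicle and glutamate machinery was tested across all kept genes (limma, Benjamini-Hochberg adjusted p under 0.05). As no label says that replicates are separate cultures, the p-values refer to the spread between arrays alone. With topotecan at 1 µM, 39.1% of all genes passed, 18.3% higher and 20.8% lower. Of the genes that passed, 46.7% were higher, and 58.9% after quantile normalization. Of 10 other vesicle transporters and SV2 proteins, 4 fell and 1 rose, and 4 to 6 fell with any 1 array left out (median -0.33, all genes -0.01). Slc32a1, which loads GABA into vesicles, averaged 6.13 ± 0.38 with topotecan and 6.76 ± 0.34 in vehicle (SD, n = 6 each; -0.64 ± 0.18, limma adjusted p = 0.0125), and Sv2b, a vesicle membrane protein, fell by 1.28 on the log2 scale (limma, adjusted p = 0.000213). The 1 riser was Slc17a5, the lysosomal sialic acid transporter of the same family (0.19 ± 0.05, limma adjusted p = 0.0145). Of 14 proton pump genes 4 fell and 1 rose, and 7 fell without vehicle 4. Of 18 vesicle membrane and synapsin genes 7 fell and none rose with limma, against 8 lower and 1 higher at an unadjusted p under 0.05, and 7 to 10 fell with any 1 array left out. The calcium sensor Syt1 fell most among them, at 9.38 ± 0.29 with topotecan and 11.39 ± 0.17 in vehicle (-2.02 ± 0.12, limma adjusted p = 1.97e-08).

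Genes of glutamate supply and uptake fell in the same comparison, 11 of 17 with 1 rising (median -0.32). The glutamine carrier Slc38a3 averaged 8.01 ± 0.09 with topotecan and 10.34 ± 0.11 in vehicle (SD, n = 6 each), and the glial glutamate transporter Slc1a2 6.08 ± 0.22 with topotecan and 7.49 ± 0.21 in vehicle. Astrocyte markers fell in 8 of 10 and rose in 1, and Slc1a2 belongs to both lists. Excitatory markers fell in 9 of 14 and rose in 1 (median -0.47), and 7 to 11 fell with any 1 array left out. Inhibitory markers fell in 8 of 14 and rose in 1 (median -0.40), the riser losing its call in 8 of the 12 fits that leave out an array. Slc17a6 was higher on average in the arrays in which these markers of both neuron classes fell.

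With irinotecan, 28.2% of all genes passed, 16.5% higher and 11.7% lower. Of 10 other vesicle transporters and SV2 proteins 4 fell and none rose (3 were higher at an unadjusted p under 0.05), led by the vesicular zinc transporter Slc30a3, at 6.16 ± 0.12 with irinotecan (SD, n = 3) and 7.94 ± 0.43 in vehicle (SD, n = 2; limma adjusted p = 0.000519). Slc32a1 fell by 0.76 on the log2 scale (limma, adjusted p = 0.000713), Gad1 by 0.57 (limma, adjusted p = 0.00408) and Gad2 by 0.53 (limma, adjusted p = 0.00291). Gad1 and Gad2 encode the enzymes that make GABA. Vesicle membrane genes fell in 5 of 18 and rose in 2, with 3 falling without vehicle 1. Excitatory markers fell in 7 of 14 and rose in 2 (median -0.26, all genes 0.07), and inhibitory markers fell in 8 of 14 and rose in 1 (-0.45); without vehicle 1 or vehicle 2 the falls numbered as few as 4 and 5. Astrocyte markers fell in 4 of 10 with none higher in limma or at an unadjusted p under 0.05. Supply and uptake genes fell in 6 of 17 and rose in 3, of which 0 to 2 were left as risers with any 1 array left out. Likewise, proton pump genes fell in 2 of 14 and rose in 1, but no fall in the pump held with any 1 array left out.

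With topotecan at 300 nM on the 3' arrays 4.4% of genes passed, 1.3% higher and 3.1% lower. Of 17 supply and uptake genes 3 fell, Slc1a2, Slc1a3 and Slc38a3, the first at 11.49 ± 0.23 with topotecan and 12.88 ± 0.35 in vehicle (SD, n = 3 each; limma adjusted p = 0.0149). Of these 3, 1 passed without topotecan 3 and none without vehicle 2. Astrocyte markers fell in 5 of 10, and in 1 to 4 of 10 with any 1 array left out. Of 9 other vesicle transporters none passed with limma, nor did any at an unadjusted p under 0.05, and of 15 proton pump genes none passed, with 1 higher at an unadjusted p. Of 18 vesicle membrane genes Syt1 fell (-1.52 ± 0.20, limma adjusted p = 0.0105), a call lost without vehicle 2. Of 15 excitatory markers 1, Foxp2, passed, and it was lower, a call that held in 1 of 6 fits with an array left out. None of 13 inhibitory markers passed with limma, against 3 higher and 1 lower at an unadjusted p under 0.05.

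Of all genes 18.6% passed with ICRF-193, which divide into 8.29% higher and 10.3% lower. Excitatory markers were divided, with 5 of 15 higher and 4 lower. Cux2, an upper layer transcription factor, averaged 9.53 ± 0.06 with ICRF-193 and 8.92 ± 0.08 in vehicle (SD, n = 3 each; limma adjusted p = 0.000496), and Camk2a, a kinase of mature excitatory neurons, fell by 0.36 (limma, adjusted p = 0.00419). Astrocyte markers fell in 8 of 10, and supply and uptake genes fell in 9 of 17, with none higher in either list at the adjusted threshold or at an unadjusted p under 0.05. Leaving out ICRF-193 2 or 3 or its vehicle 1 brought the falling supply genes to as few as 5 and the rising excitatory markers to 3. With the replicate block, which pairs same-numbered arrays, 2889 genes passed against 2031. Supply genes then fell in 11 of 17, and excitatory markers were higher in 6 of 15 and lower in 4. Inhibitory markers were divided too, with 4 of 13 higher and 2 lower. With any 1 array left out, 2 to 5 were higher and 1 to 2 lower, and with the block 6 were higher and 2 lower. Gad2 rose by 0.18 on the log2 scale (limma, adjusted p = 0.0202). Slc32a1 fell by 0.26 (limma, adjusted p = 0.042), a call that held in 1 of 6 fits with an array left out.

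With Top1 shRNA 11.9% of genes passed (6.08% higher, 5.79% lower) and with Top2b shRNA 3.11% (1.99% higher, 1.12% lower). With Top1 shRNA 5 of 14 excitatory markers fell, led by Neurod6, a transcription factor of cortical projection neurons, at 6.55 ± 0.80 with Top1 shRNA and 8.66 ± 0.04 with control shRNA (SD, n = 3 each; limma adjusted p = 0.0146). Inhibitory markers fell in 5 of 14, vesicle membrane genes in 7 of 18 and other vesicle transporters in 4 of 10. These counts rest on few arrays, since without Top1 shRNA 2 or 3 or control shRNA 2 or 3 they came to as few as 0, 1, 1 and 1. Within numbers 2 and 3, which lay in 1 set, 11 excitatory and 7 inhibitory markers, 15 vesicle membrane genes and 6 other vesicle transporters fell, where 24.5% of all genes did. With Top2b shRNA none of 14 excitatory markers passed with limma, against 6 lower at an unadjusted p under 0.05. With the replicate block 4 of the 14 were lower, where 4.58% of all genes were called lower. Within numbers 2 and 3 of Top2b shRNA 6 of them fell, where 12.5% of all genes did. Syt1 fell (-1.66 ± 0.33, limma adjusted p = 0.0271), a call lost without Top2b shRNA 2 or 3 or control shRNA 2 or 3, and with the block 3 vesicle membrane genes fell. Slc32a1 was at -1.33 ± 0.37 with Top1 shRNA (limma, adjusted p = 0.0436) and at -1.54 ± 0.37 with Top2b shRNA (limma, adjusted p = 0.0544). Of the thalamic markers Tcf7l2 rose with both, by 1.60 with Top1 shRNA and 1.65 with Top2b shRNA, calls that held in 5 of 9 and in 2 of 9 fits with an array left out.

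Markers of other neuron types and of activity were checked as well. Reln, the secreted protein of Cajal-Retzius cells and of some interneurons, averaged 7.21 ± 0.22 with topotecan at 1 µM and 9.71 ± 0.23 in vehicle (SD, n = 6 each; limma adjusted p = 2.32e-09), and it also fell with irinotecan (-2.12), topotecan at 300 nM (-2.64) and ICRF-193 (-0.45). Of the Cajal-Retzius markers 2 of 6 fell with topotecan at 1 µM, 2 of 6 fell and 1 rose with irinotecan, and 1 of 3 fell with topotecan at 300 nM and with ICRF-193. None of 6 passed with either shRNA in limma, against 2 lower with Top1 shRNA and 1 with Top2b shRNA at an unadjusted p under 0.05. With the replicate block 2 of 6 fell with Top2b shRNA, and 2 of 6 fell within numbers 2 and 3. Thalamic markers, a group in which Slc17a6 is high in the brain, fell in 2 of 6 with topotecan at 1 µM and with ICRF-193 and in 1 of 6 with topotecan at 300 nM, and they rose in 1 and fell in 1 with irinotecan. The calls with topotecan at 300 nM and ICRF-193 were partly or wholly lost in 5 of 6 fits with an array left out. Activity-regulated genes rose in 4 and fell in 8 of 17 with topotecan at 1 µM, and rose in 3 and fell in 11 of 17 with irinotecan, where 6 fell without vehicle 1. With ICRF-193 they rose in 3 and fell in 2 of 14, and with topotecan at 300 nM none of 14 passed in limma, against 3 lower at an unadjusted p. With Top1 shRNA 1 of 17 rose and 1 fell, while 4 were higher at an unadjusted p. Within numbers 2 and 3 of Top1 shRNA 10 rose, where 20.1% of all genes did. With Top2b shRNA none passed in limma, against 1 higher at an unadjusted p. Among the other genes of the Slc17 family, Slc17a5 was the one kept on the later arrays. Slc17a5 was at 0.28 ± 0.09 with irinotecan (limma, adjusted p = 0.0645). Slc17a9, the vesicular ATP transporter, averaged 7.38 ± 0.14 with topotecan at 300 nM and 7.36 ± 0.02 in vehicle (SD, n = 3 each; limma adjusted p = 0.956).

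In the dose series 3.45% of genes passed, 1.51% higher and 1.95% lower with dose. None of 9 other vesicle transporters or 17 supply and uptake genes had a slope past the threshold with limma, against 2 and 4 lower and 0 and 1 higher at an unadjusted p under 0.05. Excitatory markers rose in 2 of 15 and fell in 3. Tbr1, a transcription factor of deep-layer and early cortical neurons, rose by 0.12 ± 0.023 per dose step (limma, adjusted p = 0.0191), and Rorb, a layer 4 marker, fell by 0.21 (limma, adjusted p = 0.0372). Without vehicle 1 or vehicle 2 most of these slopes lost their call, and at most 1 rise was left in any of these fits. Within the 7 arrays that stood together 4 of 15 excitatory markers rose and 2 fell. There 1 of 9 other vesicle transporters and 1 of 17 supply and uptake genes fell and none rose, and 1127 of 11292 genes passed.

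Across the 20 treated later arrays, each taken as the difference from the mean of its own controls, the genes whose pattern was most like that of each transporter differed. These arrays share controls within experiments, so the correlations are descriptions. For Slc17a6 they were Fam185a (Pearson r = 0.966), Plcxd2 (0.960), Serpini1 (0.955), AI504432 (0.948) and Dact1 (0.942). For Slc17a7 they were Sncb (0.966), which encodes beta-synuclein, Gabbr1 (0.957), a GABA-B receptor subunit, Ajap1 (0.953), Chst1 (0.953) and Prdm8 (0.952). Those nearest to Slc17a8 were looser, led by Popdc3 (0.823) and Msantd1 (0.822). Slc17a6 and Slc17a7 correlated with each other at 0.611, where Slc17a7 ranked 2132 among 13307 genes by likeness to Slc17a6. The named neighbours depend on the measure, since by Spearman's rho 1 of the 5 genes stayed among the 5 nearest for each of Slc17a6 and Slc17a7, and 0 for Slc17a8.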

How the data were processed

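Total RNA was measured on 56 Affymetrix arrays. Affymetrix Expression Console and RMA are named in the submitters' processing notes, with no version. The authors deposited linear intensity values for each probe set, and log2 was taken here. Probe sets with 1 gene symbol were used (34958 of 45101 on the 3' arrays, 21218 of 35556 and 23521 of 41345 on the earlier and later gene-level arrays), for each gene the brightest by mean over all arrays of the type. Genes under the 40th percentile were left out, which kept 10916, 11292 and 13308 genes (limits 7.04, 6.02 and 5.01). Groups follow the sample titles, since some descriptions in the labels name another drug. Each comparison was fitted over all kept genes in R 4.3.3 with limma 3.58.1 (2-sided, lmFit and eBayes) on its own arrays, at a Benjamini-Hochberg adjusted p of 0.05, with the 3 shRNA groups in 1 fit; the dose trend is the slope over dose rank. The number of arrays limits the precision.

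The members and the 11 gene lists were chosen with earlier results of these data known. Named genes are the 3 members, up to 3 genes of each list and comparison with the largest difference past the threshold, Slc32a1, Gad1, Gad2, Slc17a5 and Slc17a9, Top1 and Top2b in the shRNA arrays, and the 5 genes most like each member. The proliferation marker Mki67 and the general neuronal markers were added after their values were seen. A further gene under this rule is not reported here. Same-numbered arrays deviated together for ICRF-193 (correlations of 0.38, 0.23 and 0.38), so these numbers were taken to pair the arrays. ICRF-193 values are from the fit without pairing unless the replicate block is named. For Top2b shRNA same-numbered arrays also deviated together (0.45, 0.39 and 0.35). So did Top2b shRNA 2 with control shRNA 3 (0.40) and 3 with 2 (0.31). This follows the sets of arrays, so it shows no pairing by number. For Top1 shRNA (0.32, 0.06 and 0.29) and the other comparisons the numbers were not taken to pair the arrays. The fit was tested on simulated data. It found few or none of the changes put into the shRNA comparisons, so a gene that did not pass there is not shown to be unchanged. Promoter windows are those of RefSeq on GRCm38.p6; the arrays name no build.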

Additional observations from a re-analysis of the deposited data

Results flagged for a closer look

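By Dixon's criterion (0.625 for 6 arrays) 2 values of genes other than the transporters stood apart from the rest of their group, among 10 groups of values looked at, where chance gives about 1 in 20. Slc32a1 read 6.11 in vehicle 4 of topotecan at 1 µM (a gap to the next vehicle of 0.679 of the range). Slc17a5 read 8.71 in vehicle 3 (0.745 of the range). Slc17a7 read 6.73 in vehicle 4, with a gap of 0.799 of the range, which is a description and no test, since the transporters were chosen with their levels known.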

How the results depend on the processing

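Of 255 alternative values of the members 247 moved by less than the spread between replicates and 8 moved more. Part of the 247 could not move. The trend in eBayes, the fit without the filter and the block with equal numbers leave each difference as it is. So does the mean of probe sets for a gene with 1 probe set. The 247 are thus no measure of stability. Another sign than the reported value was seen in 12, 0 of 96 for Slc17a6, 7 of 96 for Slc17a7 and 5 of 63 for Slc17a8. This spread is wide where vehicles lie apart. Slc17a7 with hydrogen peroxide went from 1.21 to -1.11 against vehicle 2 alone and still counts as unmoved (SD of the vehicles 3.28). The 8 that moved more included Slc17a7 with Top1 shRNA (-3.89 within numbers 2 and 3, -1.30 within number 1). Others were Slc17a6 and Slc17a8 with Top2b shRNA within number 1 (-1.68 and -0.63). The rest were dose slopes. For Slc17a6 these were the slope per log10 of dose (0.39), which is in another unit, and that without 1000 nM (0.24). For Slc17a7 they were those without 1000 nM (0.035) and within the larger set of arrays (0.044). With 1 array left out, the Slc17a6 differences ranged over 0.86 to 1.14 (topotecan 300 nM), 0.40 to 0.61 (1 µM), 1.30 to 1.53 (irinotecan), 0.55 to 0.59 (ICRF-193), -1.26 to -0.74 (Top1 shRNA) and -1.42 to -1.18 (Top2b shRNA). For Slc17a7 they ranged over -0.07 to 0.33, -0.80 to -0.38, -0.19 to -0.13, -0.05 to 0.01, -3.52 to -2.51 and -1.35 to -0.39 in the same order. The replicate block cannot change a mean difference where the groups hold the same numbers, as they do in every comparison but irinotecan. With irinotecan Slc17a6 stayed at 1.41 under the block and Slc17a7 went from -0.17 to -0.18. The block changed the number of genes past the threshold to 1 against 480 with topotecan at 300 nM and 2889 against 2031 with ICRF-193. The shRNA counts became 3124 against 1579 (Top1) and 1352 against 414 (Top2b). With the block Slc17a5 lost its call with topotecan at 1 µM, where the numbers do not pair the arrays. Without the filter on dim genes 1286 against 2031 genes passed with ICRF-193, 2226 against 3750 with irinotecan, 614 against 1579 with Top1 shRNA, 0 against 414 with Top2b shRNA and 244 against 390 in the dose series, and the cause was not tested. Within numbers 2 and 3 alone 5944 passed with Top1 shRNA and 3003 with Top2b shRNA. The dose series gave 2871 with the set of arrays as a term, 1127 in the larger set and 217 per log10 of dose. Over all alternatives, arrays left out included, the counts ran over 1 to 600 (topotecan 300 nM), 885 to 2889 (ICRF-193), 4227 to 6500 (1 µM), 1780 to 4669 (irinotecan), 450 to 5944 (Top1 shRNA), 0 to 3003 (Top2b shRNA) and 205 to 2871 (dose series). Of 990 list counts 257 moved by over 1.5 times.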
